A study of Homo sapiens with 14 samples.

Results

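The 10 genes described here carry, make and read retinoic acid, and they were taken by name from the deposited count table, as 10 of its 20049 gene symbols. They are the retinoic acid receptors RARA, RARB and RARG, the retinoid X receptors RXRA and RXRG, the cellular retinoic acid binding proteins CRABP1 and CRABP2, the synthesis enzyme ALDH1A2, and the breakdown enzymes CYP26A1 and CYP26B1. Their levels were followed across 14 established human neuroblastoma cell lines, with 1 RNA sequencing library per line. Neuroblastoma is a childhood tumour of the sympathetic nervous system. Beside SH-SY5Y and SK-N-SH, and IMR5-75 and IMR32, the set holds NGP, LS, Lan-6, GI-ME-N, CLB-GA, NBL-S, SK-N-BE(2)C, SK-N-FI, SK-N-DZ and SK-N-AS. All were cultured in serum-containing medium, RPMI1640 or DMEM, with no antibiotics, and the labels name no treatment and do not say which line had which medium. SH-SY5Y is a subclone of SK-N-SH, and IMR5-75 is a subclone of IMR32, which is textbook knowledge and not part of the labels. Each line is 1 sample in 1 library, so a p-value below reflects how far lines differ and takes in whatever differs technically between their libraries.

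Retinoic acid is made from vitamin A in steps, the last of which is run by the ALDH1A enzymes. In the cell it is bound by the CRABP proteins, read in the nucleus by pairs of a RAR with an RXR that sit on DNA and switch genes on when the ligand binds, and broken down by the CYP26 enzymes. In neuroblastoma the pathway is known because retinoic acid makes many lines stop dividing and put out neurites, and because an isomer of it, isotretinoin, is given to children with high-risk disease.

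A RAR and RXR pair binds best to a direct repeat of a short half-site with 5 bases in between, called DR5, and RARB and CYP26A1 are textbook targets that carry such a repeat and rise when retinoic acid is added. The 250 bases before each of 18 RefSeq starts of the 10 genes (GRCh38.p14) were searched on both strands for repeats of the half-sites AGGTCA and AGTTCA as well as GGGTCA and also GGTTCA, spaced by 1, 2 or 5 bases. Only 1 RARB start and 1 of the 2 CYP26A1 starts held a match, in each case a DR5. Both sequences are printed because they are the matches this search found among the members. Capitals mark the half-sites. The RARB sequence is chr3:25428013-25428262 on the plus strand, before the start of the isoform known as beta 2, with the repeat on the plus strand. The end of its repeat is marked -36, for the bases that lie between the repeat and the start. The CYP26A1 sequence is chr10:93073643-93073892 on the plus strand, with the repeat on the minus strand and its end marked -73 in the same way.
RARB: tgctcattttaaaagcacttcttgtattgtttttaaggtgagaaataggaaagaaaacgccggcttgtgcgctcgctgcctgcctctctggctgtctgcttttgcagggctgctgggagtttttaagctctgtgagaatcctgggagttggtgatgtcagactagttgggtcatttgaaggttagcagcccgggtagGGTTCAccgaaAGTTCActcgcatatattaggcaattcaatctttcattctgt
CYP26A1: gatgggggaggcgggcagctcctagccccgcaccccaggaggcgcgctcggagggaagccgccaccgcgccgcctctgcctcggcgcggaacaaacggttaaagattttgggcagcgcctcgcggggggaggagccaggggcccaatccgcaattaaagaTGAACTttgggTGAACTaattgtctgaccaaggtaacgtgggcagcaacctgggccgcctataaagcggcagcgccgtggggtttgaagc
Over 35116 RefSeq promoters of the same length, 0.074% held such a DR5 and 0.202% held a repeat with any of the 3 spacers. A match describes letters and is not evidence of binding.

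Library totals ran from 35856642 counts in Lan-6 to 58644013 counts in LS, and a count of 0 allowed up to 3 counts, which is 0.0514 CPM (counts scaled to library size) in LS and 0.102 CPM in Lan-6. Intervals below are exact 95% Poisson intervals and, like these limits, cover counting error only. The libraries of Lan-6 and GI-ME-N stood apart: over 6242 stable genes their values fell with transcript length (Spearman rho -0.431 for Lan-6, -0.405 for GI-ME-N), and in Lan-6 they also rose with GC content (rho 0.644). Where removing that trend changed the place of a named level or moved it past 1.5-fold, the level with the trend removed is also given for the main cases. A level given alone may still have changed place. All 15 adrenergic markers, which mark the sympathetic cell state, averaged at least 1 CPM, and their sum was lowest in SK-N-SH (665.4 CPM) and highest in Lan-6 (25496.2 CPM). All 15 mesenchymal markers did too, lowest in SK-N-BE(2)C (220.2 CPM) and highest in GI-ME-N (33942.4 CPM). All 8 fibroblast markers averaged at least 1 CPM (16.6 to 14670.5 CPM summed, highest in SK-N-SH), as did 3 of 8 leukocyte markers (5.37 to 487.6 CPM, highest in SK-N-AS), 2 of 6 endothelial markers (1.12 to 10.7 CPM) and 3 of 6 Schwann cell markers (3.53 to 19.6 CPM). In SK-N-AS the leukocyte sum was mostly PTPRC, at 469.6 CPM, while CD3E had 0 counts there.

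Some members were present in every line and others in few. RARA, RARG, RXRA and CRABP2 had at least 1 CPM in 14 of 14 lines, CRABP1 in 12, RARB in 8, ALDH1A2 in 4, RXRG and CYP26A1 in 1 each, and CYP26B1 in none, which makes 82 of 140 levels. In a bulk library a lower level in each cell and a smaller share of cells with the transcript cannot be told apart. The standard deviation of log2 CPM across lines put CRABP1 at the 98.4th percentile of the 15376 genes that averaged 1 CPM or more, ALDH1A2 at the 87.7th, RARB at the 86.3rd and CRABP2 at the 81.2nd. RARA stood at the 41.1st and RXRA at the 26.4th. Of the members found in every line, RARA and RXRA thus varied least and CRABP2 most.

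**Figure D1:**
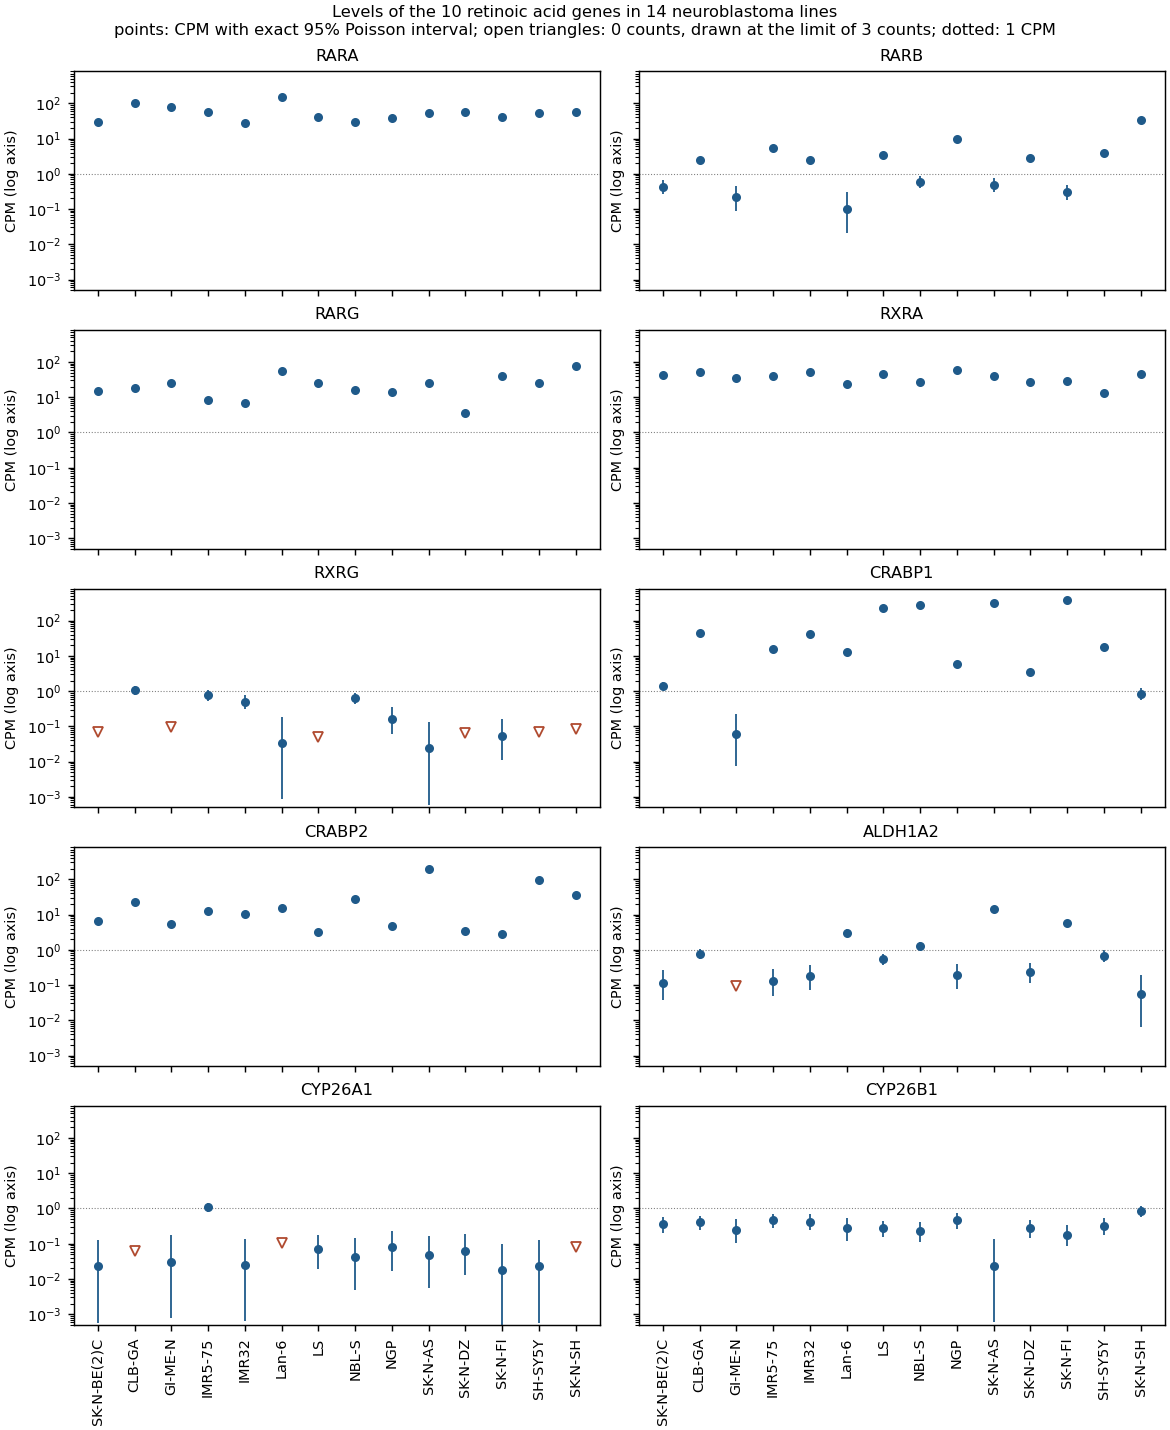
Level of each of the 10 genes in each of the 14 lines, in CPM on a log axis, with exact 95% Poisson intervals (many are narrower than the point); open triangles mark 0 counts, drawn at the limit of 3 counts. RARA, RARG and RXRA stay above 1 CPM in every line, CRABP1 spans 0.062 CPM (GI-ME-N) to 387.7 CPM (SK-N-FI), and CYP26A1 reaches 1 CPM only in IMR5-75.

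RARA (chromosome 17, 40309192 to 40357643, plus strand, GENCODE 29 on GRCh38) encodes the receptor found in most tissues. Lan-6 (152.4 CPM), CLB-GA (102.5 CPM) and GI-ME-N (78.5 CPM) were the top lines, the median was 53.9 CPM, and IMR32 was lowest at 27.2 CPM. The Lan-6 level was 77.7 CPM with the trend removed, below the 102.7 CPM of CLB-GA, so which line is highest depends on that library. GI-ME-N had 57.2 CPM with the trend removed, below IMR5-75 (64.4 CPM) and SK-N-DZ (62.7 CPM) and just under SK-N-SH (57.4 CPM). From SK-N-DZ at 58.3 CPM to SH-SY5Y at 53.2 CPM, 5 lines followed each other with overlapping intervals, as did 8 of the 13 neighbouring pairs in all.

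RARG (chromosome 12, 53210567 to 53232980, minus strand) encodes the receptor best known from skin. SK-N-SH was highest at 77.6 CPM, followed by Lan-6 at 54.4 CPM and SK-N-FI at 39.4 CPM. The median was 21.5 CPM, and the lowest lines were IMR5-75 at 8.24 CPM, IMR32 at 6.99 CPM and SK-N-DZ at 3.53 CPM. With the trend removed Lan-6 had 30.5 CPM and stood below SK-N-FI at 40.8 CPM. SK-N-SH was highest and SK-N-DZ lowest on both scales, and 7 of 13 neighbouring pairs had overlapping intervals.

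RARB (chromosome 3, 25174332 to 25597932, plus strand), the receptor gene that retinoic acid itself induces, was the most uneven of the 3. SK-N-SH had 34.2 CPM (95% interval 32.3 to 36.1), which was 3.56-fold the next line, NGP, at 9.6 CPM. IMR5-75 had 5.41 CPM, SH-SY5Y 3.88 CPM, LS 3.43 CPM, SK-N-DZ 2.86 CPM, CLB-GA 2.53 CPM and IMR32 2.42 CPM. The remaining 6 lines were under 1 CPM: NBL-S at 0.601, SK-N-AS at 0.496, SK-N-BE(2)C at 0.433, SK-N-FI at 0.307, GI-ME-N at 0.217 and Lan-6 at 0.102 CPM, the last from 3 counts. The intervals of IMR32 and NBL-S lay apart, and from there down every neighbour overlapped the next (9 of 13 pairs in all).

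Levels of the 3 receptors were compared per kilobase of their longest coding transcript, which is 3041 bases for RARA, 3084 for RARB and 2959 for RARG. RARA held the largest share of the summed CPM per kilobase in 13 of the 14 lines. Over all 14 its share was lowest in SK-N-SH at 33.5% and highest in SK-N-DZ at 90%, with a median of 66.6%. In SK-N-SH the largest share was that of RARG, at 46.7%, and RARB held 19.8% there, its highest share. SK-N-FI was nearly even, with 50.3% RARA and 49.3% RARG, and with median transcript lengths in place of the longest RARG was the larger in that line. RARB held 14.8% in NGP and 0.0481% in Lan-6, where it was lowest. The receptor total varied 5.66-fold, from 12.1 CPM per kilobase (IMR32) to 68.5 (Lan-6). With the trend removed it varied 4.48-fold and was highest in SK-N-SH, at 55.5 CPM per kilobase.

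**Figure D2:**
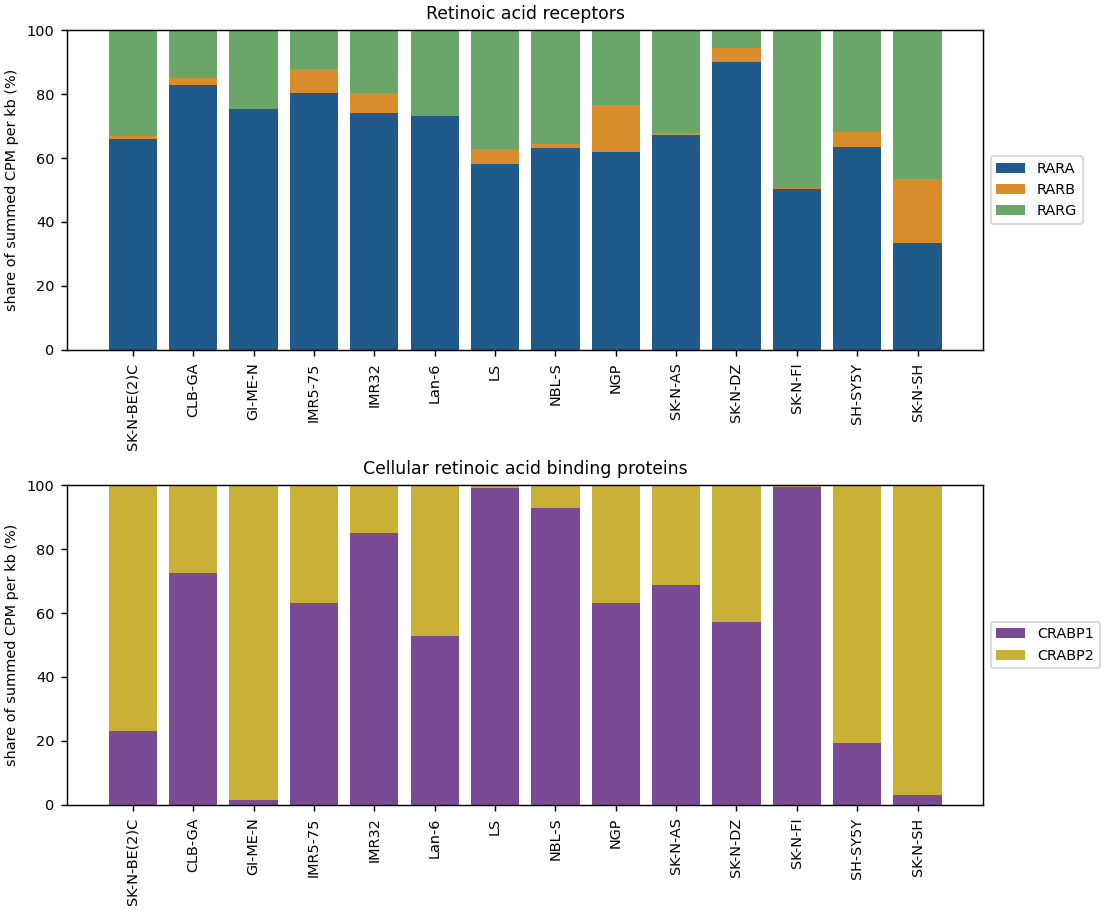
Share (%) of summed CPM per kilobase held by each retinoic acid receptor gene (top) and by each retinoic acid binding protein gene (bottom), for each line. RARA is the largest receptor share in 13 lines, and the split between CRABP1 and CRABP2 spans 1.5% CRABP1 in GI-ME-N to 99.5% in SK-N-FI.

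RXRA (chromosome 9, 134317098 to 134440585, plus strand) encodes the common partner of the RARs. It had 61.1 CPM in NGP, 51.2 CPM in CLB-GA, a median of 40.4 CPM, 24.3 CPM in Lan-6 and 13.3 CPM in SH-SY5Y. With the trend removed Lan-6 had 10.1 CPM and took the lowest place from SH-SY5Y at 12.9 CPM. RXRB, a partner gene outside the 10 that is found in most tissues, was steadier still, with 44.6 CPM in SK-N-DZ, a median of 55.7 CPM and 88.3 CPM in GI-ME-N. With the trend removed RXRB was highest in SK-N-SH (73.7 CPM), ahead of GI-ME-N (64.2 CPM), and lowest in Lan-6 (40.5 CPM).

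RXRG (chromosome 1, 165400917 to 165445355, minus strand) encodes the partner best known from brain and muscle, and it was at the edge of detection. In 6 lines it had 0 counts, namely SK-N-BE(2)C, GI-ME-N, LS, SK-N-DZ, SH-SY5Y and SK-N-SH. CLB-GA had 1.08 CPM from 51 counts, IMR5-75 0.753 CPM, NBL-S 0.642 CPM and IMR32 0.499 CPM, and NGP, SK-N-FI, SK-N-AS and Lan-6 had 6 counts or fewer. All 13 neighbouring pairs overlapped, so the order holds only between lines far apart in it.

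CRABP1 (chromosome 15, 78340324 to 78348230, plus strand) encodes a carrier that holds retinoic acid in the cytoplasm, and of the members it differed most between lines. SK-N-FI at 387.7 CPM, SK-N-AS at 324.5 CPM, NBL-S at 276.7 CPM and LS at 226.1 CPM formed a high group of 4. CLB-GA had 44.2 CPM, IMR32 43.1 CPM, SH-SY5Y 17.8 CPM, IMR5-75 16.1 CPM, Lan-6 12.7 CPM and NGP 6.05 CPM. SK-N-DZ had 3.38 CPM, SK-N-BE(2)C 1.43 CPM, SK-N-SH 0.851 CPM and GI-ME-N 0.062 CPM, from 2 counts. No line lay between LS and CLB-GA, and only 3 of 13 neighbouring pairs overlapped. Lan-6 had 4.8 CPM with the trend removed, which moved it below NGP at 6.56 CPM. On that scale GI-ME-N had 0.0307 CPM and was still lowest, and IMR5-75 (18.7 CPM) passed SH-SY5Y (16.7 CPM).

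CRABP2 (chromosome 1, 156699606 to 156705816, minus strand) encodes the carrier that hands retinoic acid to the receptors. SK-N-AS had 197.9 CPM (95% interval 193.7 to 202.2), SH-SY5Y 98.1 CPM, SK-N-SH 35.6 CPM and NBL-S 27.8 CPM. CLB-GA had 22.4 CPM, Lan-6 15.3 CPM (6.88 CPM with the trend removed), IMR5-75 12.5 CPM, IMR32 10.1 CPM, SK-N-BE(2)C 6.4 CPM and GI-ME-N 5.45 CPM. NGP had 4.76 CPM, SK-N-DZ 3.4 CPM, LS 3.15 CPM and SK-N-FI 2.78 CPM. SK-N-FI and LS, both in the high group for CRABP1, were the 2 lowest lines for CRABP2. With the trend removed GI-ME-N had 2.96 CPM and was the lowest, under SK-N-FI (3.23 CPM) and LS (3.57 CPM).

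Per kilobase of the longest coding transcript, CRABP1 was the larger of the pair in 10 lines and CRABP2 in 4, namely SK-N-BE(2)C, GI-ME-N, SH-SY5Y and SK-N-SH. CRABP1 held 99.5% in SK-N-FI and 99% in LS, but 3.1% in SK-N-SH and 1.5% in GI-ME-N. Lan-6, at 52.7% CRABP1, changed sides with the trend removed or with median transcript lengths, which left 9 lines. The total of both carriers varied 114.2-fold, from 5.36 CPM per kilobase (GI-ME-N) to 612 (SK-N-AS), against 5.66-fold for the receptors. With the trend removed the carrier total varied 222-fold, from 2.9 CPM per kilobase (GI-ME-N) to 644.7 (SK-N-FI), against 4.48-fold for the receptors.

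ALDH1A2 (chromosome 15, 57953424 to 58497866, minus strand) encodes the enzyme that makes retinoic acid in much of the embryo. SK-N-AS had 14.3 CPM, 2.5-fold the 5.74 CPM of SK-N-FI, followed by Lan-6 at 3.08 CPM and NBL-S at 1.3 CPM. The intervals of these 4 did not overlap each other, while that of NBL-S overlapped the one of CLB-GA, at 0.76 CPM. SH-SY5Y had 0.665 CPM, LS 0.531 CPM, SK-N-DZ 0.235 CPM, NGP 0.188 CPM, IMR32 0.175 CPM, IMR5-75 0.133 CPM, SK-N-BE(2)C 0.114 CPM and SK-N-SH 0.0549 CPM, and GI-ME-N had 0 counts. SK-N-AS, highest for ALDH1A2 and CRABP2, was also the line with the highest leukocyte marker sum, and the part of that in these levels was not tested.

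Per kilobase, ALDH1A2 was the largest of the 3 ALDH1A genes only in Lan-6, at 59.6%, and held 49.4% in SK-N-FI and 23.5% in SK-N-AS. ALDH1A3 was the largest in 11 lines and ALDH1A1 in GI-ME-N and SK-N-DZ, where all 3 genes were low, with totals of 0.185 and 0.233 CPM per kilobase. With median transcript lengths SK-N-FI joined Lan-6 on the side of ALDH1A2. ALDH1A3, named after its values were seen, was highest in CLB-GA (271.8 CPM), next in SK-N-AS (44.3 CPM) and lowest in GI-ME-N (0.093 CPM). The family total varied 374.3-fold, and its top was the ALDH1A3 of CLB-GA and not a member.

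CYP26A1 (chromosome 10, 93073475 to 93077890, plus strand) encodes the main inducible breakdown enzyme. It had 49 counts, or 1.09 CPM (95% interval 0.803 to 1.44), in IMR5-75. The other 13 lines had 0 to 4 counts, with 0 in CLB-GA, Lan-6 and SK-N-SH, and the highest of them was NGP at 0.0807 CPM. IMR5-75 stood alone, its interval overlapping no other, and the remaining 12 neighbouring pairs overlapped.

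CYP26B1 (chromosome 2, 72129238 to 72148038, minus strand), a second breakdown enzyme, was under 1 CPM throughout. It had 0.851 CPM in SK-N-SH from 31 counts, a median of 0.3 CPM, and 0.0236 CPM in SK-N-AS from 1 count. All 13 neighbouring pairs overlapped, and on the deposited log2 values IMR5-75, NGP and CLB-GA were above SK-N-SH for CYP26B1. SK-N-SH, the line with the most RARB, thus had the highest CYP26B1 by CPM and 0 counts of CYP26A1. Both breakdown genes were at or under 0.851 CPM in every line but IMR5-75, which had 1.09 CPM of CYP26A1.

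Among the 7 members with at least 5 CPM in 2 or more lines, 21 pairs were compared by Pearson's r of log2 CPM over 14 lines, as a description. The points share depth and library effects, and 4 of the 14 come from 2 related pairs. The pair CRABP1 and ALDH1A2 had r = 0.80 (Spearman's rho 0.82), and no other pair passed 0.7 in either direction, the next being RARB and ALDH1A2 at r = -0.45. For CRABP1 and ALDH1A2 the value was 0.69 without GI-ME-N and SK-N-FI, the 2 lines farthest from the median of CRABP1, 0.81 over the 12 lines without the subclones, and 0.76 with the trend removed. SK-N-AS, SK-N-FI and NBL-S were high in both, and GI-ME-N, SK-N-SH and SK-N-BE(2)C low in both. Lan-6 and LS departed from this, LS with 226.1 CPM of CRABP1 and 0.531 CPM of ALDH1A2, and Lan-6 with 12.7 CPM of CRABP1 and 3.08 CPM of ALDH1A2.

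**Figure D3:**
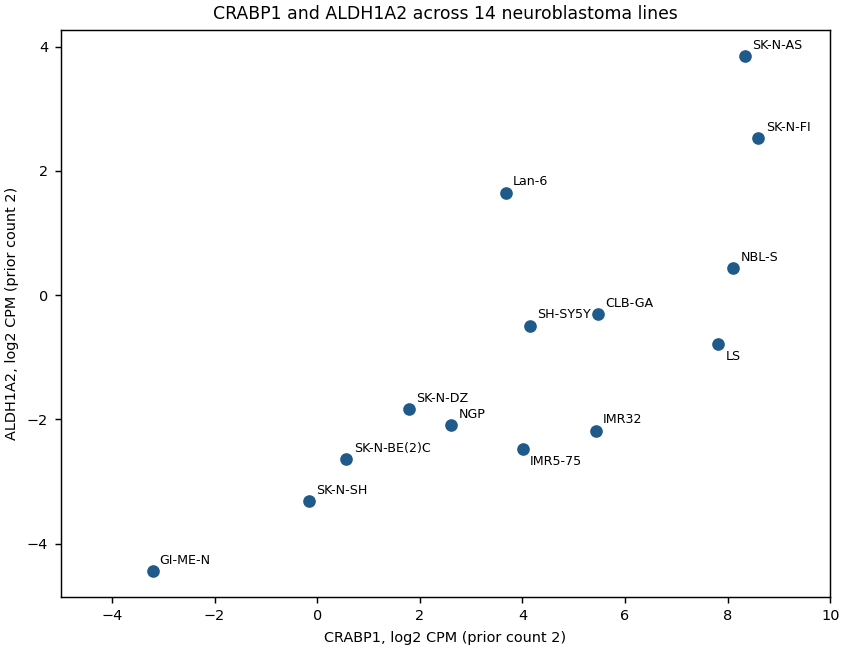
Log2 CPM (prior count 2) of ALDH1A2 against that of CRABP1, 1 point per line. The 14 points give r = 0.80, with GI-ME-N at the low end of both and SK-N-AS and SK-N-FI at the high end.

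The genes whose levels most resembled each of these 7 members were found by the same r among 12534 genes (12535 for RARB and ALDH1A2) that averaged 5 CPM or more. For RARA they were TMEM44 (r = 0.89), BAG6 (0.88) and PRDX5 (0.88), all 3 highest in Lan-6, and these values were 0.79, 0.76 and 0.79 with the trend removed. For RARB they were LBH (0.86), DIAPH2 (0.83) and GNAI1 (0.82). For RARG they were SPRED3 (0.86), NRBP1 (0.86) and TEP1 (0.85). RXRA had the loosest matches, KCNQ5 (0.81), ATXN1 (0.75) and PRRG1 (0.74), and that of ATXN1 was 0.45 with the trend removed. Over the 12 lines without the subclones these were 0.66 for KCNQ5, 0.53 for ATXN1 and 0.69 for PRRG1. For CRABP1 they were GAL, the gene of the neuropeptide galanin (0.86), CCDC65 (0.83) and SEMA6D (0.83). For CRABP2 they were CCNE1, the gene of cyclin E1 (0.83), RGS2 (0.82) and ATP13A2 (0.77). For ALDH1A2 they were MAGEA11 (0.87), GTPBP2 (0.84) and CCNJL (0.82). Of these 21 matches 18 had r of at least 0.8. As the best of so many candidates they are high by selection.

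Neuroblastoma lines are known to sit between an adrenergic and a mesenchymal state. Whether the members followed that axis was asked with a slope on a mesenchymal score, the mean centred log2 CPM of the 15 mesenchymal markers, in edgeR's quasi-likelihood test over 12 lines (without SH-SY5Y and IMR5-75). The slope is in log2 units per SD of the score, and 1 SD is 2.73. SK-N-SH scored 5.94, GI-ME-N 4.63, LS 1.3 and SK-N-AS 0.73, and the other 8 lines scored between -2.31 and -0.29, so SK-N-SH and GI-ME-N lay far from the rest. Of 18661 genes tested 5.53% were called at an adjusted p under 0.05, 3.55% rising and 1.98% falling.

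Of the 10 members 9 were tested and 1 was called. RXRG fell, with a slope of -4.30 ± 1.05 (SE; adjusted p = 0.0306 in edgeR). SK-N-SH, GI-ME-N and LS, the 3 highest scores, all had 0 counts of it, but so did SK-N-BE(2)C and SK-N-DZ, and the fitted slope of a gene with so many zeros depends on the prior count. The call was lost without CLB-GA, GI-ME-N, LS, NBL-S, SK-N-AS or SK-N-SH, each left out in turn (edgeR adjusted p of 0.0563 to 0.101), while the slope in those 6 fits stayed between -4.82 and -3.60. It was lost in 10 of 21 alternatives in all, over which the adjusted p ran from 0.0158 to 0.238 and the slope from -4.82 to -0.28, the last in limma on the deposited log2 values. RARB had the steepest positive slope, 1.08 ± 0.46 (adjusted p = 0.208 in edgeR), and without SK-N-SH it was -0.67, as GI-ME-N had only 0.217 CPM of it. RARG had 0.48 (adjusted p = 0.328 in edgeR), CRABP2 0.54, CYP26B1 0.24, RXRA 0.03, RARA -0.01, ALDH1A2 -0.24 and CRABP1 -0.74, none of which passed. The median slope was 0.03 over the 9 members and -0.05 over all genes tested. The 2 most mesenchymal lines differed from each other in the members: SK-N-SH had 34.2 CPM of RARB and 35.6 CPM of CRABP2, while GI-ME-N had 0.217 CPM of RARB and 5.45 CPM of CRABP2.

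MYCN, the oncogene amplified in many neuroblastomas, ran from -1.22 log2 CPM (SK-N-SH) and -0.88 (SK-N-AS) to 11.13 (SK-N-BE(2)C), and 1 SD of it over the 12 lines is 4.69. It moved against the mesenchymal score (r = -0.64 over these 12 lines), so the 2 scans are not independent of each other. Of 17781 genes tested 3.46% were called, 1.1% rising and 2.36% falling with MYCN. Of the 10 members 8 were tested and 1 was called.

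CRABP2 fell with MYCN, with a slope of -1.46 ± 0.37 (SE; adjusted p = 0.0488 in edgeR). Its highest line among the 12, SK-N-AS at 197.9 CPM, had the second lowest MYCN, and without it the slope was -0.70 (adjusted p = 0.215 in edgeR). The call was lost in 11 of the 12 fits that left out 1 line, all but the one without Lan-6, and in 15 of 21 alternatives, in all of which the slope stayed negative. RARG had a slope of -0.81 ± 0.26 (adjusted p = 0.0868), ALDH1A2 of -1.84 ± 0.74 (adjusted p = 0.151) and RARA of -0.49 ± 0.21 (adjusted p = 0.177), all in edgeR and none called. With DESeq2 in place of edgeR, RARG (adjusted p = 0.0166) and ALDH1A2 (adjusted p = 0.0167) were called too. DESeq2 called far more genes in general, 3183 against 616 in edgeR. RARB had -0.68, CRABP1 -0.28, CYP26B1 -0.04 and RXRA 0.07. The median slope was -0.59 over the 8 members and -0.01 over all genes tested.

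**Figure D4:**
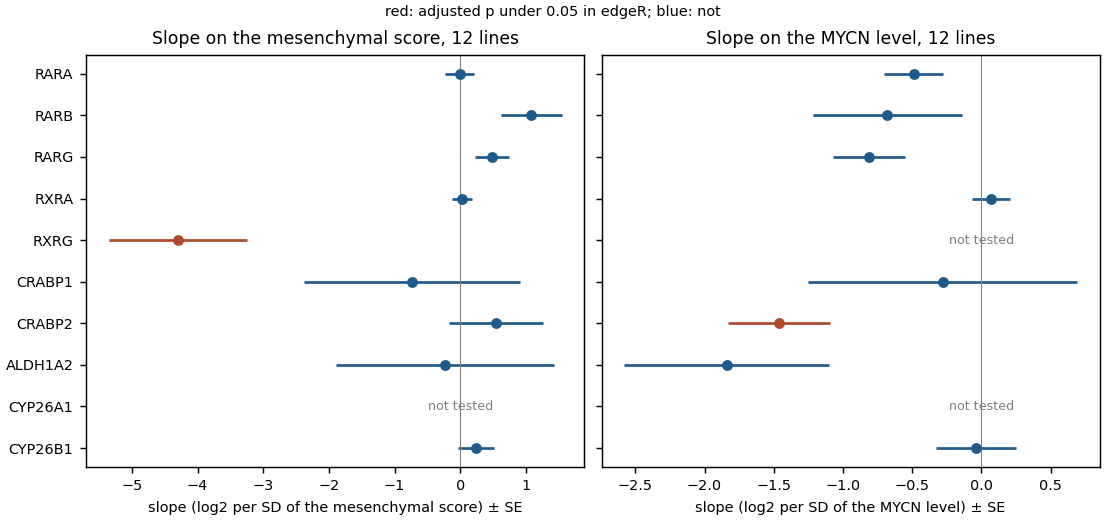
Slope ± SE of each member on the mesenchymal score (left) and on the MYCN level (right), in log2 units per SD over 12 lines; red marks an adjusted p under 0.05 in edgeR. RXRG on the mesenchymal score (-4.30) and CRABP2 on MYCN (-1.46) are the called slopes, and RXRG (on MYCN) and CYP26A1 were not tested.

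Other genes of the pathway were read from 4 lists. Of 22 genes known to rise when retinoic acid is added, 20 were measured and 17 tested, and HOXB1 and FOXA1 were not analysed here. On the mesenchymal score 2 of the 17 rose and none fell, and on MYCN none rose and 2 fell, in both cases DHRS3 and TGM2. Of 12 genes of synthesis, storage and breakdown outside the members, 11 were measured (CYP26C1 was not analysed here). On the mesenchymal score 10 were tested and DHRS3 and RDH10 rose, and on MYCN 9 were tested and DHRS3 fell. Of 6 other receptors and carriers 5 were tested, none was called on the mesenchymal score and PPARD fell with MYCN. None of 14 receptor cofactors and modulators was called in either scan, against 1 of 14 on the mesenchymal score and 3 of 14 on MYCN at an unadjusted p under 0.05, where 20.6% and 25% of all genes tested were under it.

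TGM2, the gene of tissue transglutaminase, reached 1127.6 CPM (SK-N-SH) and 1114 CPM (GI-ME-N), and the highest of the other 12 lines was IMR5-75 at 4.45 CPM. The intervals of SK-N-SH and GI-ME-N overlapped, and GI-ME-N was the higher on the deposited log2 values. The slope of TGM2 on the mesenchymal score was 3.47 ± 0.39 (SE; adjusted p = 3.66e-04 in edgeR), and it was called in 21 of 21 alternatives. None of these left out both SK-N-SH and GI-ME-N. LS and SK-N-AS, next in score, had 1.11 and 1.32 CPM of TGM2, and a slope among the lines without SK-N-SH and GI-ME-N was not tested. DHRS3, an enzyme that turns retinal back into retinol, reached 50.8 CPM (SK-N-SH), 8.52 CPM (SK-N-AS) and 1.29 CPM (CLB-GA). DHRS3 was under 1 CPM in the other 11 lines, GI-ME-N at 0.372 CPM (0.233 CPM with the trend removed) among them. Its slope was 2.30 ± 0.55 (adjusted p = 0.0285 in edgeR) and 1.45 without SK-N-SH (adjusted p = 0.532), and the call was also lost without IMR32 (adjusted p = 0.0527) or NBL-S (adjusted p = 0.0577). RDH10, the enzyme of the step from retinol to retinal, reached 563.1 CPM (SK-N-SH), 23.0 CPM (SK-N-AS) and 19.8 CPM (GI-ME-N), and was lowest in Lan-6 (2.1 CPM). Its slope was 1.98 ± 0.26 (adjusted p = 8.88e-04 in edgeR) and 0.63 without SK-N-SH (adjusted p = 0.349). SK-N-SH thus had the highest RARB, RARG, DHRS3 and RDH10 of the 14 lines, with intervals clear of the next line. Its fibroblast marker sum was the highest too, but by the mean centred log2 CPM of these markers GI-ME-N was higher (4.93 against 4.81 in SK-N-SH). The part of the cell state in these levels was not tested.

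**Figure D5:**
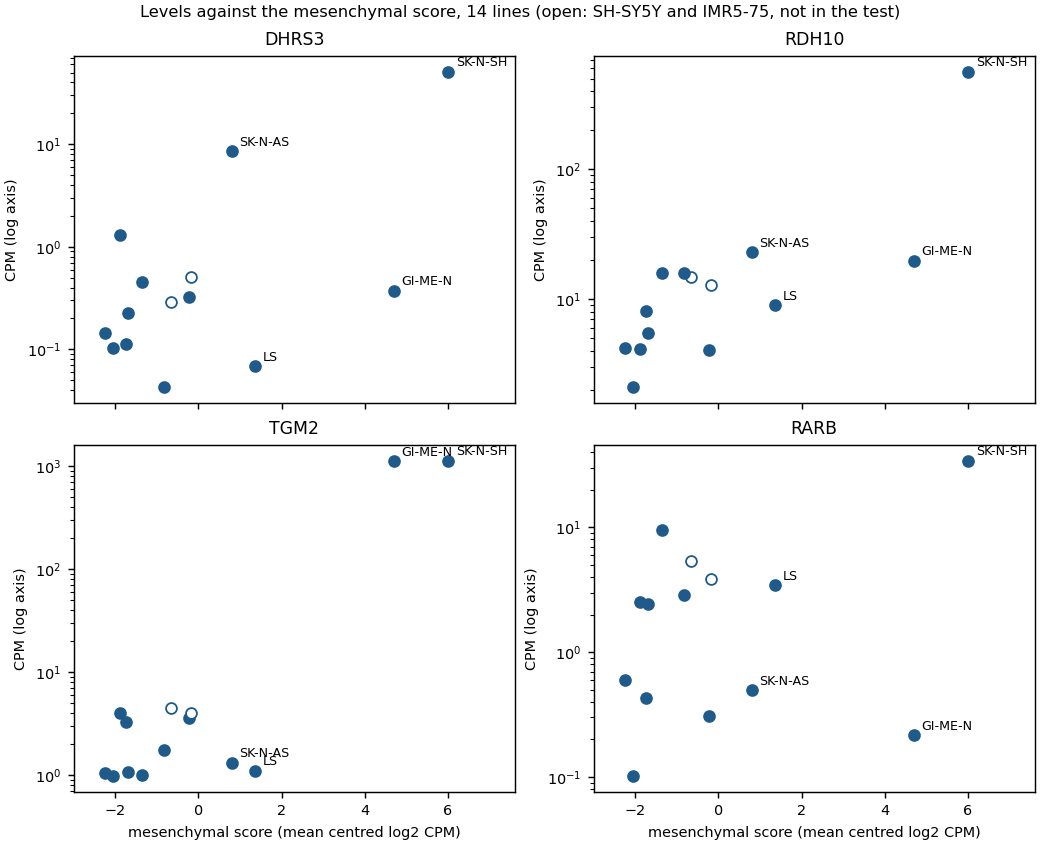
Level (CPM, log axis) of DHRS3, RDH10, TGM2 and RARB against the mesenchymal score centred over all 14 lines, 1 point per line; open circles are SH-SY5Y and IMR5-75, which were not in the test. SK-N-SH is at the top right in every panel, and GI-ME-N joins it only for TGM2.

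On MYCN the slope of DHRS3 was -2.75 ± 0.49 (adjusted p = 0.0258), that of TGM2 -3.65 ± 0.71 (adjusted p = 0.029) and that of PPARD -0.78 ± 0.18 (adjusted p = 0.0405), all in edgeR. The calls of DHRS3 and TGM2 were each lost in 8 of 21 alternatives, among them the fits without GI-ME-N, IMR32, NBL-S, NGP, SK-N-DZ or SK-N-SH. That of PPARD was lost in 13 of 21 and held, of the fits that left out 1 line, in those without CLB-GA, Lan-6 or SK-N-AS. PPARD, a nuclear receptor that is also reported to bind retinoic acid, had 133.8 CPM in GI-ME-N, 111.1 CPM in IMR5-75, a median of 35.1 CPM and 19.6 CPM in LS. With the trend removed IMR5-75 was highest for PPARD (122.8 CPM), ahead of GI-ME-N (105.7 CPM), and IMR32 (21.4 CPM) was under LS (21.9 CPM).

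Most of the cofactors were steady across lines. Of the 14, 12 had at least 1 CPM in every line, and the median SD of log2 CPM was 0.59, against 0.8 over the 15376 genes above. Above that 0.8 were NRIP1 (SD 3.28), ZNF423 (1.96), PRAME (1.91) and NF1 (1.4). The 3 with the widest range were NRIP1, ZNF423 and NF1. NRIP1, a corepressor of nuclear receptors, had 208.4 CPM in LS and 136.7 CPM in CLB-GA, a median of 74.6 CPM, and 9 counts in each of SH-SY5Y and SK-N-SH, at 0.206 and 0.247 CPM. ZNF423, a zinc finger partner of the RAR and RXR pair, had 109.5 CPM in SH-SY5Y, 26.4 CPM in the next line and 0.279 CPM in GI-ME-N. NF1, whose loss is known to blunt the response of neuroblastoma cells to retinoic acid, had 183.8 CPM in SK-N-DZ, a median of 102.4 CPM and 3.66 CPM in GI-ME-N.

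Of the 20 measured genes known to rise with retinoic acid, 7 had at least 1 CPM in all 14 lines. CDX1 and RARRES3, named after their values were seen, each had at least 1 CPM in 1 line, CDX1 at 1.61 CPM in SH-SY5Y and RARRES3 at 1.51 CPM in SK-N-SH. STRA6, the cell surface transporter of vitamin A and also a gene known to rise, likewise chosen after its values were seen, reached 553.3 CPM (SK-N-FI) and 510.8 CPM (Lan-6, where it was 274.2 CPM once the trend was removed), with a median of 85.4 CPM and a low of 0.403 CPM (GI-ME-N). GI-ME-N was lowest or at 0 counts for CRABP1, ALDH1A2, RXRG (0 counts in 6 lines), ALDH1A3, STRA6, ZNF423 and NF1, among others. RET (1.08 CPM), RARRES1, RARRES2, BTG2, RDH13 and NCOA2 were also lowest in it. GI-ME-N was not low throughout. Of the genes known to rise, it was the highest line for NR2F2 (265.8 CPM), NR2F1 (78.5 CPM), NEDD9 (72.2 CPM) and HIC1 (35.5 CPM). With the trend removed NGP was highest for NR2F1 (72.5 CPM), ahead of GI-ME-N (62.4 CPM). Apart from the members, ZNF423 and NF1, these genes too were named after their values were seen.

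SH-SY5Y and its parent SK-N-SH differed in several members. With 1 library a line there is no test, and a difference past 4-fold in log2 CPM with a prior count of 2 was used to name genes with at least 1 CPM in either line. Of the 6 members so detected 2 were past 4-fold, 1 higher and 1 lower in SH-SY5Y, where 18.7% of 15062 genes were past it, 8.84% higher and 9.85% lower. Past 2-fold were 5 of the 6 members and 37.1% of all genes. CRABP1 had 17.8 CPM in SH-SY5Y (774 counts), against 0.851 CPM in SK-N-SH (31 counts), a ratio of 20.9 (95% counting interval 14.6 to 30.9). RARB had 3.88 CPM in SH-SY5Y, against 34.2 CPM in SK-N-SH, a ratio of 0.113 (0.096 to 0.133). RXRA had 13.3 CPM in SH-SY5Y and 46.3 CPM in SK-N-SH, RARG 26.0 CPM in SH-SY5Y and 77.6 CPM in SK-N-SH, and CRABP2 98.1 CPM in SH-SY5Y and 35.6 CPM in SK-N-SH. RARA was nearly level, with 53.2 CPM in SH-SY5Y and 57.2 CPM in SK-N-SH. RARB, RARG and RXRA were thus lower and both carriers higher in SH-SY5Y, with a median log2 ratio of -0.85 over the 6 members against 0 over all genes.

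Of the members under 1 CPM in both, ALDH1A2 had 29 counts in SH-SY5Y and 2 counts in SK-N-SH, a ratio of 12.1 (3.07 to 104.8), and CYP26B1 had 14 counts in SH-SY5Y and 31 counts in SK-N-SH, a ratio of 0.378 (0.186 to 0.731). RXRG had 0 counts in both, and CYP26A1 had 1 count in SH-SY5Y and 0 counts in SK-N-SH. The genes high in SK-N-SH above were low in its subclone: TGM2 had 3.99 CPM in SH-SY5Y and 1127.6 CPM in SK-N-SH, RDH10 had 12.8 CPM in SH-SY5Y and 563.1 CPM in SK-N-SH, and DHRS3 had 0.505 CPM in SH-SY5Y and 50.8 CPM in SK-N-SH. ZNF423 went the other way, with 109.5 CPM in SH-SY5Y and 2.99 CPM in SK-N-SH.

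IMR5-75 and its parent IMR32 differed less. Of 7 detected members 1 was past 4-fold, where 12.1% of 15179 genes were past it, 6.75% higher and 5.36% lower in IMR5-75. Past 2-fold were 4 of the 7 members and 31.7% of all genes. The member past 4-fold was CYP26A1, with 49 counts (1.09 CPM) in IMR5-75 and 1 count (0.025 CPM) in IMR32, a ratio of 43.5 with a counting interval of 7.45 to 1752.9. RARB had 5.41 CPM in IMR5-75 and 2.42 CPM in IMR32, a ratio of 2.23 (1.76 to 2.86), and RARA had 56.2 CPM in IMR5-75 and 27.2 CPM in IMR32, a ratio of 2.06 (1.92 to 2.22). CRABP1 had 16.1 CPM in IMR5-75 and 43.1 CPM in IMR32, a ratio of 0.374 (0.342 to 0.408). RARG (8.24 CPM in IMR5-75 and 6.99 CPM in IMR32), RXRA (40.0 CPM in IMR5-75 and 50.8 CPM in IMR32) and CRABP2 (12.5 CPM in IMR5-75 and 10.1 CPM in IMR32) stayed within 1.5-fold. The median log2 ratio was 0.31 over the 7 members and -0.01 over all genes.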

How the data were processed

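Total RNA of the 14 lines was isolated with TRIzol and sequenced from TruSeq libraries, per the labels. Named in the submitters' processing notes, without roles, are GRCh38 as the build, kallisto 0.44.0 and DESeq2 1.48.2. Which annotation, strand setting and filters were applied is not given in the sources used here, so reads of overlapping antisense genes may be included. The table deposited by the authors holds whole numbers, read here in the unit of expected counts (estimated counts, rounded), a unit that rests on the values, since no source states it. The log2 values deposited by the authors are variance-stabilised by their table's name, and served as an alternative scale. All columns were used. No pair of the 91 pairs of libraries was identical, with a chi-square per gene of at least 257.4.

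With edgeR 4.0.16 under R 4.3.3, counts were turned into CPM by TMM scaling and, after adding a prior count of 2, into log2 CPM. Slopes were fitted on all genes that passed edgeR's expression filter in 12 lines and adjusted by Benjamini-Hochberg, with a threshold of 0.05, after checks on simulated data. The genes of a score were left out of its scan. Lengths, GC content and positions came from GENCODE 29 (98.9% of symbols matched), and length and GC trends were removed per library with splines fitted on 6242 stable genes. Alternatives were DESeq2 1.42.0 size factors and test, limma 3.58.1 on the deposited log2 values, no filter, prior count 0.5, all 14 lines, subclones for parents, each line left out, Lan-6 and GI-ME-N left out, the trend removed, other folds, Spearman's rho and, added after seeing the data, median transcript lengths. Named genes were the 10 members, list genes called in a scan (otherwise the 3 of widest range), and the 3 nearest genes per member with at least 5 CPM in 2 lines. The members and lists were chosen with earlier results of these data known. Lines are single libraries, so groups of replicates, batches and pairing could not be examined.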

Additional observations from a re-analysis of the deposited data

How the results depend on the processing

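The 82 levels of at least 1 CPM stayed 82 with DESeq2's size factors and with the trend removed. Of the 140 levels 39 moved past their counting interval with the trend removed, 9 of them in Lan-6 or GI-ME-N, so close neighbours can change places. Of those 39, 7 also moved past 1.5-fold, all in Lan-6 or GI-ME-N. CRABP1 in GI-ME-N (0.062 to 0.0307 CPM) and RXRG in Lan-6 (0.0339 to 0.0225 CPM) moved past 1.5-fold within their intervals. Of 10 members 9 kept their highest line on the deposited log2 values, all but CYP26B1. With the trend removed 9 kept it too, all but RARA. The counts of called genes depend much more on the fit. On the mesenchymal score 1032 genes were called, 2913 with DESeq2, 477 with subclones in place of their parents, 582 without Lan-6 and GI-ME-N, and 445 to 1642 with 1 line left out. The member count of 1 was 0 with limma, with all 14 lines, with subclones and without Lan-6 and GI-ME-N. In that order 1, 2, 1 and 3 members had an unadjusted p under 0.05, and so had 3494, 4070, 2994 and 3261 of all genes. In the main fit 2 of 9 members and 20.6% of all genes tested were under it. With 1 line left out the member count was 0 to 1. On MYCN 616 genes were called, 3183 with DESeq2, 341 with limma, 1270 with all 14 lines, 0 with subclones (3900 at an unadjusted p under 0.05), 169 without Lan-6 and GI-ME-N, and 0 to 1475 with 1 line left out, the 0 without IMR32 or NGP. The member count of 1 was 3 with DESeq2, 2 with all 14 lines, and 0 to 1 with 1 line left out. It was 0 with limma, with subclones, without Lan-6 and GI-ME-N and with the trend removed. In that order 2, 4, 3 and 3 members had an unadjusted p under 0.05 in edgeR or limma. So had 4179, 3900, 3559 and 4332 of all genes. In the main fit 4 of 8 members and 25% of all genes tested were under it. The cause was not tested.

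Slopes that turned sign were uncalled ones. On the mesenchymal score, limma gave 0.05 for RARA and -0.03 for CYP26B1. Subclones gave -0.66 for RARB, -0.01 for RXRA, 0.24 for CRABP1, -0.21 for CYP26B1 and 0.67 for ALDH1A2. Without Lan-6 and GI-ME-N the slopes were 0.09 for RARA and 1.37 for ALDH1A2, and with the trend removed 0.02 for RARA and -0.03 for RXRA. With 1 line left out RARA ran from -0.11 to 0.19, RARB from -0.67 to 1.41, RXRA from -0.03 to 0.07, CRABP1 from -1.51 to 0.37, CYP26B1 from -0.25 to 0.30, ALDH1A2 from -1.68 to 0.89 and PPARD from -0.02 to 0.59. On MYCN, limma gave 0.02 for RARB, 0.24 for CRABP1 and 0.10 for CYP26B1, subclones gave 1.22 for RARB and 0.46 for CYP26B1, and the trend removed gave 0.04 for CYP26B1. With 1 line left out RARB ran from -1.02 to 1.34, CRABP1 from -0.66 to 1.38 and CYP26B1 from -0.20 to 0.50.

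At 2-fold in place of 4-fold, 5 of 6 members passed between SH-SY5Y and SK-N-SH, where 37.1% of all genes did, and 4 of 7 between IMR5-75 and IMR32, where 31.7% did. On the deposited log2 values 0 members and 6.05% of all genes passed 4-fold between IMR5-75 and IMR32, where CYP26A1 was the 1 call. The 18 likeness values of at least 0.8 were 8 by Spearman's rho and 11 on the deposited log2 values. Depth limits RXRG, CYP26A1, CYP26B1 and most levels of ALDH1A2, which rest on few counts.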
